A study of Danio rerio with 6 samples.

Results

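The genes described here copy DNA or supply its building blocks. They are 50 named genes of the replicative helicase and its loaders, the DNA polymerases, the sliding clamp and its loader, nucleotide synthesis, and the maintenance of DNA methylation behind the fork. They were found in the count tables by gene symbol, ignoring case. The symbols stood on 52 of the 32520 gene rows, because mcm6 and rrm2 each name 2 rows. The symbols are written here in the zebrafish style.

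RNA came from whole zebrafish larvae at 5 days after fertilisation, in 3 libraries of pdcd7/cx20 mutants (allele pd1215) and 3 libraries of their wild-type siblings. The pdcd7 protein is part of the U11 particle, which recognises the rare introns of the minor class, and the labels do not explain the name cx20. Each library was made from pooled larvae, and the labels give 40 larvae without saying whether that is the number per library. Nothing in the labels says that replicates came from separate clutches, so the p-values measure the spread between these libraries, which may be technical.

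Chromosomes are copied once per cell cycle. The origin recognition complex (ORC), with CDC6 and CDT1, loads the ring of MCM proteins onto DNA before S phase, and CDC45 and the GINS complex then turn that ring into the active helicase. DNA polymerase alpha with primase starts each strand, polymerases epsilon and delta extend it, PCNA holds them on the template, and replication factor C (RFC) opens the PCNA ring. Transcripts of many of these genes peak around S phase under the control of E2F factors, and in a larva of this age they are known from proliferating zones such as the margin of the retina, the brain ventricles and the gut.

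Library totals ranged from 75122088 to 87110177 counts, and the 52 rows held 93720 to 169364 of these counts in each. Pairs of replicates differed beyond counting noise (chi-square per degree of freedom 4.76 to 6.61). The transcript of pdcd7 itself measured 21.8, 19.6 and 20.5 CPM in mutants and 14.8, 15 and 15.3 CPM in siblings. CPM are counts scaled to the TMM-adjusted library size. The pdcd7 transcript was thus higher in the mutant libraries (log2 0.46 ± 0.04 SE, adjusted p = 1.73e-06), and counts per gene do not show the lesion. Whole larvae hold all tissues, and the marker lists for neural progenitors, neurons, blood progenitors and germ cells each had 0 genes at or under a count of 3 in every library.

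Almost all of the replication genes were higher in pdcd7 mutants. Of the 52 rows, 52 passed the filter on low counts, 50 were called higher in mutants and 0 lower (edgeR quasi-likelihood test, adjusted p threshold 0.05). Over all 24248 genes tested, 34.5% were called higher and 34.1% lower. The median log2 change of the members was 0.64, with quartiles of 0.49 and 0.81, against a median of 0.01 and quartiles of -0.28 and 0.30 over all genes tested. Every called member was above all sibling libraries in each of the 3 mutant libraries, and 36.4% of all genes tested were separated in that direction. CPM are relative to the library total. In whole larvae, a larger share of RNA from proliferating cells and more RNA of these genes per cell cannot be told apart, and neither was tested.

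The rise was moderate in size. At least 1.5-fold was reached by 33 called members, beside 10.7% of all genes tested, and at least 2-fold by 5 members, beside 3.34%. Those 5 were mcm6 on chromosome 2, orc3, chek1, tyms and orc5. A test against a 1.2-fold change called 47 members higher, beside 18.5% of all genes tested, and a test against 1.5-fold, added after the data were seen, called 21, beside 5.78%. Changes between log2 0.4 and 0.9 took in 37 members, and 5 members lay below log2 0.4. The SD of the log2 change was 0.27 over the members and 0.71 over all genes tested. Summed over the members, the level was 1884 to 1933 CPM in mutants and 1255 to 1281 CPM in siblings, so the groups were far apart compared with the spread within either.

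**Figure D1:**
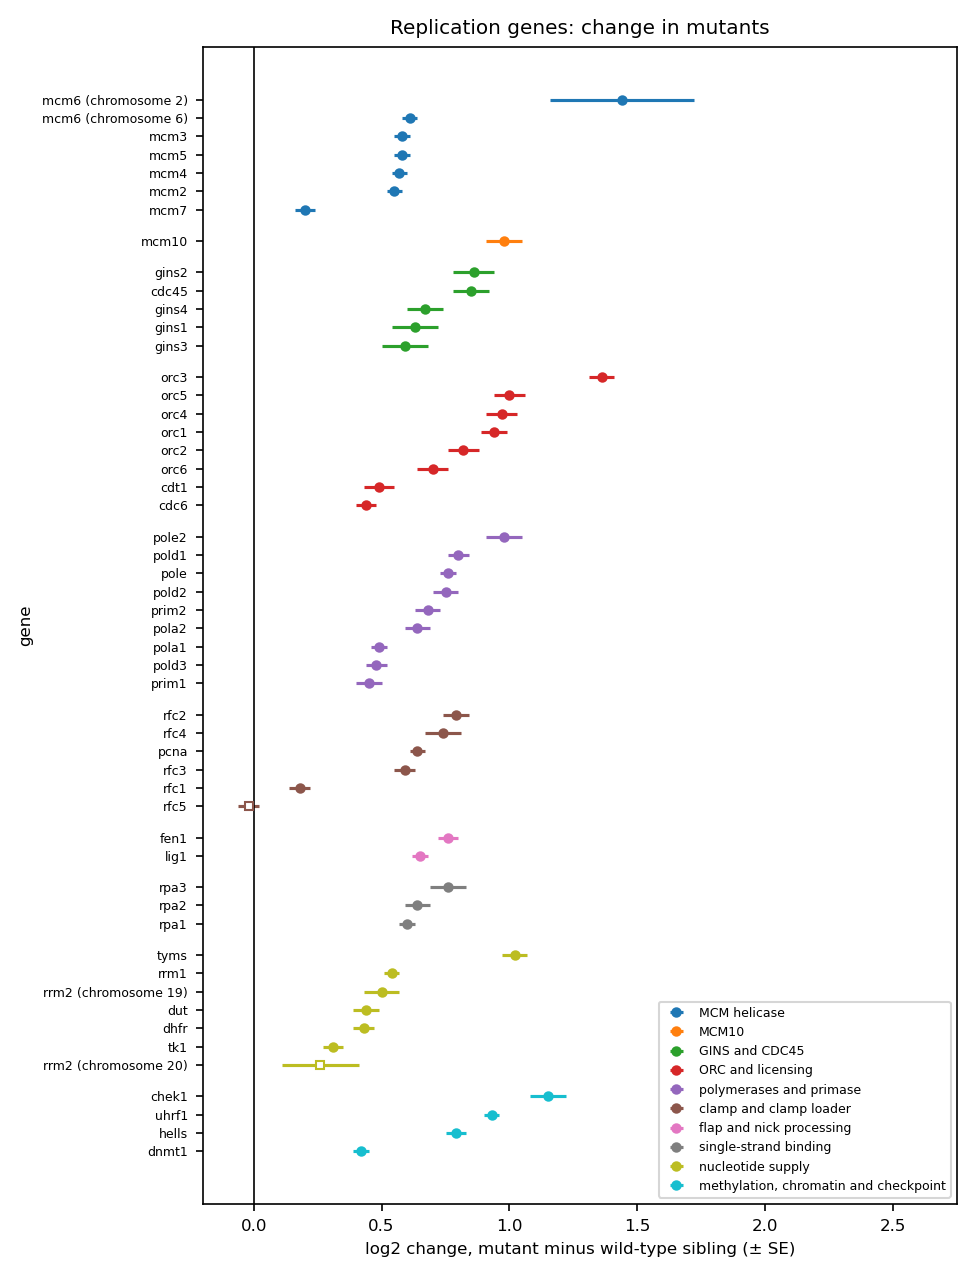
Log2 change of each of the 52 rows, mutant minus wild-type sibling, with the SE as horizontal bars, grouped and coloured by complex. Filled circles are genes called higher and open squares the 2 genes not called, rfc5 at -0.02 and rrm2 on chromosome 20 at 0.26.

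The MCM ring was higher as a whole, with mcm7 changing least. MCM2 to MCM7 form the hexamer that unwinds DNA. All 7 rows were called higher, and mcm2, mcm3, mcm4, mcm5 and the chromosome 6 row of mcm6 lay close together, between log2 0.55 ± 0.03 SE for mcm2 and 0.61 ± 0.03 SE for mcm6. That main mcm6 row (ENSDARG00000057683, chromosome 6, bases 12968101 to 12985390, plus strand) measured 79.1, 80.1 and 78 CPM in mutants against 52.7, 52.2 and 50.8 CPM in siblings. The mcm7 row (ENSDARG00000101180, chromosome 14, bases 94603 to 102022, plus strand) measured 112, 104 and 102 CPM in mutants against 93.7, 90.5 and 92.9 CPM in siblings. The mcm7 groups did not overlap, but the difference was small (log2 0.20 ± 0.04 SE, adjusted p = 4.68e-04), and it did not pass a test against a 1.2-fold change.

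The second mcm6 row (ENSDARG00000033231, chromosome 2, bases 50199738 to 50225495, minus strand) was a rare transcript. It measured 0.502, 0.574 and 0.456 CPM in mutants against 0.191, 0.256 and 0.114 CPM in siblings, from 9 to 47 counts per library. Its groups did not overlap, and its change was the largest of the members and the least certain (log2 1.44 ± 0.28 SE, adjusted p = 5.41e-04). Its level stood at 0.0724 ± 0.0276 CPM per kb of exon in siblings (SD, n = 3), against 16.1 ± 0.302 for the chromosome 6 row. A RefSeq table of another assembly, used for names only, lists mcm6l on chromosome 2 and mcm6 on chromosome 6.

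Levels per kb of exon can be set against each other between subunits, within the limit that they depend on the annotated exon length. In siblings they ran from 11 ± 0.0433 CPM per kb for mcm2 to 39.6 ± 0.704 for mcm7 (SD, n = 3), with mcm3 at 15.5 ± 0.228, mcm6 at 16.1 ± 0.302, mcm5 at 20.3 ± 0.604 and mcm4 at 21.5 ± 0.717. In mutants mcm2 reached 16.1 ± 0.436 CPM per kb and mcm7 45.5 ± 2.3, so mcm7 stayed the highest. The low rank of mcm2 rests on its exon length of 5678 bases, against 3062 for mcm3. Without scaling by length, mcm2 was above mcm3 in siblings (62.3 ± 0.246 against 47.4 ± 0.7 CPM, SD, n = 3). The ratio of mcm7 to the mean of mcm2 to mcm6 was 1.89, 1.77 and 1.76 in mutants and 2.36, 2.28 and 2.41 in siblings. This ratio, like the others below, was chosen after the values were seen and carries no test.

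**Figure D2:**
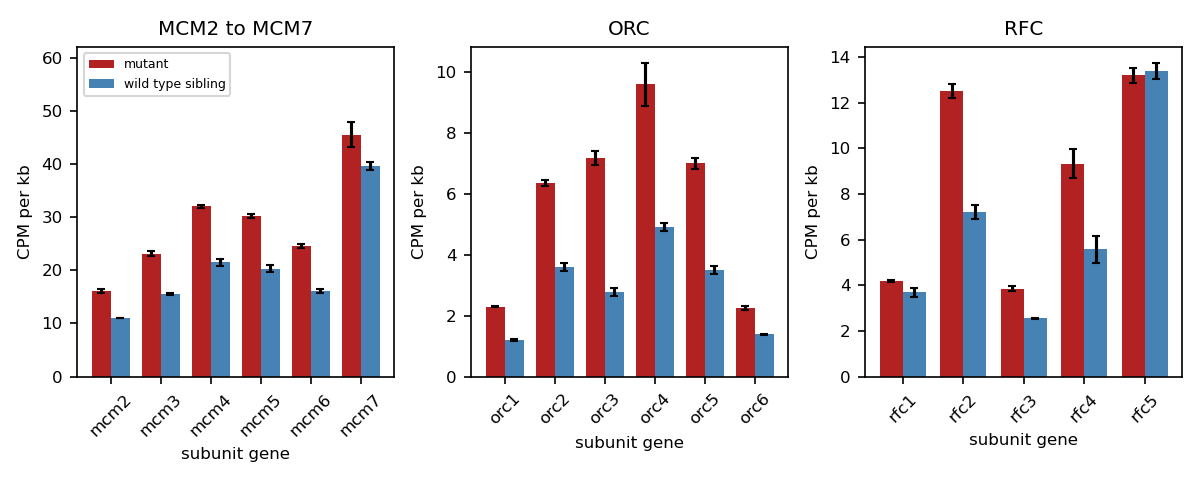
Level of each subunit gene of MCM2 to MCM7 (mcm6 is the chromosome 6 row), ORC and RFC in CPM per kb of exon, as bars of the group mean with the SD over n = 3 libraries, in mutants and wild-type siblings. The bars of mutants stand above those of siblings for every ORC gene, while for rfc5 they are level at 13.2 and 13.4 CPM per kb.

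Among the licensing genes, the ORC genes lay at log2 changes of 0.70 to 1.36, and cdc6 and cdt1 at 0.44 and 0.49. All 6 ORC genes and cdc6 and cdt1 were called higher, with a median log2 change of 0.88 over the 8. The largest change among members with more than 1 CPM was that of orc3 (ENSDARG00000008805, chromosome 17, bases 49313504 to 49339681, minus strand), a core ORC subunit. It measured 18.6, 18 and 17.5 CPM in mutants against 6.75, 7.37 and 6.86 CPM in siblings, a clean separation of the groups (log2 1.36 ± 0.05 SE, adjusted p = 3.44e-10). The next were orc5 (log2 1.00 ± 0.06 SE), orc4 (0.97 ± 0.06) and orc1 (0.94 ± 0.05), the last of which encodes an ATPase subunit. They were followed by orc2 (0.82 ± 0.06) and orc6 (0.70 ± 0.06).

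The loader gene cdc6 changed least of this group and measured 18.8, 17.3 and 18.4 CPM in mutants against 13.4, 13.5 and 13.2 CPM in siblings (log2 0.44 ± 0.04 SE, adjusted p = 2.29e-06). Its partner cdt1, whose protein brings the MCM ring to ORC, stood at log2 0.49 ± 0.06 SE. Per kb, orc3 was 1.3, 1.3 and 1.31 times the mean of the other ORC genes in mutants, and 0.91, 1.01 and 0.957 times in siblings. In siblings orc4 had the highest level per kb of the ORC genes, 4.9 ± 0.134 CPM per kb (SD, n = 3), and orc1 the lowest, 1.2 ± 0.0429. These ranks rest on annotated exon lengths of 1503 bases for orc4 and 7125 for orc1. Without scaling by length, orc1 was above orc4 in siblings (8.55 ± 0.306 against 7.37 ± 0.201 CPM). Opposite-strand exons of other genes overlap 9.59% of the exon bases of orc1 at mpl and 6.39% of those of orc6 at mylk3, and the counting was strand-specific.

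The genes that complete and start the helicase were low in level and uniformly higher. The GINS genes gins1 to gins4 and cdc45 were all called, from log2 0.59 ± 0.09 SE for gins3 to 0.86 ± 0.08 for gins2. In CPM, gins2 measured 6.48, 5.69 and 5.74 CPM in mutants against 3.04, 3.41 and 3.39 CPM in siblings (log2 0.86 ± 0.08 SE, adjusted p = 1.27e-06). The weakest of them, gins3, measured 3.95, 4.45 and 3.83 CPM in mutants against 2.76, 2.81 and 2.56 CPM in siblings (log2 0.59 ± 0.09 SE, adjusted p = 6.31e-05). Neither gene had overlapping groups, although gins3 had fewer than 5 CPM in each library. The change of cdc45 was log2 0.85 ± 0.07 SE, that of gins4 0.67 ± 0.07 and that of gins1 0.63 ± 0.09.

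MCM10 helps the assembled helicase to start moving. Its gene, mcm10, measured 6.01, 5.55 and 5.71 CPM in mutants against 3.02, 2.94 and 2.77 CPM in siblings. Every mutant library lay above 5 CPM and no sibling library above 3.02 CPM (log2 0.98 ± 0.07 SE, adjusted p = 1.46e-07).

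The 9 polymerase and primase genes among the members were all called higher. Of subunit genes outside the members, pole3 rose by log2 0.65 ± 0.04 SE and pole4 was not called (0.15 ± 0.07, adjusted p = 0.0819). The gene pold4 was called lower at -0.13 ± 0.05, near the threshold (adjusted p = 0.0381). The median log2 change of the 9 members was 0.68. The largest change was that of pole2, the second subunit of the leading-strand polymerase epsilon, which measured 11.5, 9.76 and 10.8 CPM in mutants against 5.72, 5.35 and 5.17 CPM in siblings (log2 0.98 ± 0.07 SE, adjusted p = 1.22e-07). Its catalytic partner pole changed by log2 0.76 ± 0.03 SE. The catalytic subunit gene of the lagging-strand polymerase delta, pold1, changed by 0.80 ± 0.04, with pold2 at 0.75 ± 0.05 and pold3 at 0.48 ± 0.04.

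The smallest change of these genes was that of prim1, the catalytic primase subunit, which measured 14.5, 15.5 and 15.6 CPM in mutants against 11.1, 11.4 and 10.8 CPM in siblings (log2 0.45 ± 0.05 SE, adjusted p = 3.19e-06). Its groups did not overlap. The regulatory primase gene prim2 changed by log2 0.68 ± 0.05 SE, pola2 by 0.64 ± 0.05 and pola1, the polymerase subunit itself, by 0.49 ± 0.03. For pold2, 9.29% of the exon bases overlap same-strand exons of sf3a1, so read pairs there would be ambiguous between the genes, and 14.2% of the exon bases of prim1 overlap tfip11 on the opposite strand.

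PCNA had the highest level per kb of all members, and the genes of its loader ranged from log2 -0.02 to 0.79. The sliding clamp gene pcna (ENSDARG00000054155, chromosome 10, bases 40821804 to 40826657, minus strand) measured 228, 223 and 221 CPM in mutants against 144, 148 and 140 CPM in siblings. That was a rise from 99.5 ± 2.64 to 155 ± 2.55 CPM per kb (SD, n = 3), with no overlap between the groups (log2 0.64 ± 0.03 SE, adjusted p = 3.57e-09). Of the loader genes, rfc2 changed most and measured 19.9, 20.7 and 19.8 CPM in mutants against 12, 11.9 and 11.1 CPM in siblings (log2 0.79 ± 0.05 SE, adjusted p = 1.45e-08). The changes of rfc4 and rfc3 were log2 0.74 ± 0.07 and 0.59 ± 0.04 SE. For rfc3, 67.5% of the exon bases overlap exons of the gene with the symbol KL on the opposite strand.

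The remaining loader genes were rfc5, which was not called, and rfc1. RFC5 is one of the small subunits shared by all RFC-type loaders. The rfc5 gene (ENSDARG00000035634, chromosome 5, bases 12528693 to 12549732, plus strand) measured 23.4, 23.4 and 24.4 CPM in mutants against 24.8, 23.9 and 23.6 CPM in siblings. The ranges of the groups overlapped and the change was not called (log2 -0.02 ± 0.04 SE, adjusted p = 0.621). Its sign depended on scaling, at log2 0.02 with upper quartile scaling and 0.05 with library size only, neither of them called. The large subunit gene rfc1 was called at a small change (log2 0.18 ± 0.04 SE) that did not pass the test against 1.2-fold, and 12.5% of its exon bases overlap the ribosomal protein gene rpl9 on the same strand. Per kb, rfc5 was 1.49, 1.5 and 1.65 times the mean of rfc2 to rfc4 in mutants and 2.64, 2.68 and 2.54 times in siblings. The neighbouring member pole, which starts 0.215 Mb from rfc5 on chromosome 5, rose in the same libraries.

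Strand-joining and single-strand binding genes followed the middle of the range. The flap nuclease gene fen1, which trims Okazaki fragments, measured 31.9, 29.8 and 32.3 CPM in mutants against 18.4, 19.1 and 17.9 CPM in siblings (log2 0.76 ± 0.04 SE, adjusted p = 8.81e-09). The ligase gene lig1, which seals them, measured 38.5, 37.8 and 38.1 CPM in mutants against 24.2, 24.6 and 24.4 CPM in siblings (log2 0.65 ± 0.03 SE, adjusted p = 2.41e-09). Both were separated between the groups by many times their spread. Replication protein A coats exposed single strands and has 3 subunits. Its largest subunit gene rpa1 measured 82.4, 81.5 and 82.2 CPM in mutants against 55.6, 52.9 and 54.3 CPM in siblings (log2 0.60 ± 0.03 SE, adjusted p = 4.52e-09), and the smallest, rpa3, measured 11.3, 10.5 and 9.42 CPM in mutants against 6.44, 6.12 and 5.86 CPM in siblings (log2 0.76 ± 0.07 SE, adjusted p = 1.47e-06). The change of rpa2 was log2 0.64 ± 0.05 SE.

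Genes of nucleotide supply ranged from log2 0.26 to 1.02. Over their 7 rows the median log2 change was 0.44, 6 rows were called higher, and 1 row was not called. Thymidylate synthase, encoded by tyms, makes the base precursor particular to DNA. It measured 23.2, 21.4 and 22.6 CPM in mutants against 11.7, 10.7 and 10.9 CPM in siblings, and the mutant level was 2.02 times the sibling level (log2 1.02 ± 0.05 SE, adjusted p = 2.76e-09). The reductase gene dhfr, which regenerates the folate that thymidylate synthase uses, changed by 0.43 ± 0.04, and the dUTPase gene dut, which keeps uracil out of DNA, by 0.44 ± 0.05. The salvage kinase gene tk1 was at log2 0.31 ± 0.04 SE. Per kb, tyms was 2.01, 1.82 and 2 times dhfr in mutants and 1.34, 1.25 and 1.29 times in siblings.

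Ribonucleotide reductase makes deoxynucleotides from ribonucleotides and joins a large subunit, RRM1, with a small one, RRM2. The large subunit gene rrm1 rose by log2 0.54 ± 0.03 SE. The symbol RRM2 stood on rows of chromosomes 19 and 20. The chromosome 19 row (ENSDARG00000078069, chromosome 19, bases 47564890 to 47571808, minus strand) measured 37.1, 37 and 34.2 CPM in mutants against 29.5, 24.3 and 23.1 CPM in siblings (log2 0.50 ± 0.07 SE, adjusted p = 5.95e-05). The chromosome 20 row (ENSDARG00000020711, chromosome 20, bases 29492469 to 29499426, minus strand) measured 19.2, 19.3 and 23.8 CPM in mutants against 12, 18.2 and 21.5 CPM in siblings, with overlapping groups, and was not called (log2 0.26 ± 0.15 SE, adjusted p = 0.146).

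The rrm2 rows varied between replicates in opposite directions. Among siblings, the library highest on chromosome 19 (29.5 CPM) was lowest on chromosome 20 (12 CPM), and the library lowest on chromosome 19 (23.1 CPM) was highest on chromosome 20 (21.5 CPM). Among mutants, replicate 3 was lowest on chromosome 19 (34.2 CPM) and highest on chromosome 20 (23.8 CPM). Summed, the rows gave 56.2, 56.3 and 57.9 CPM in mutants and 41.5, 42.5 and 44.6 CPM in siblings, without overlap. The chromosome 20 row was called without sibling replicate 3 (log2 0.45, adjusted p = 0.014) and stood at log2 0.06 without sibling replicate 1. Over all alternatives run, its adjusted p lay between 0.014 and 1. The sequences of the rows were not compared, and whether read pairs were shared between them was not tested, so the count of either row is uncertain.

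**Figure D3:**
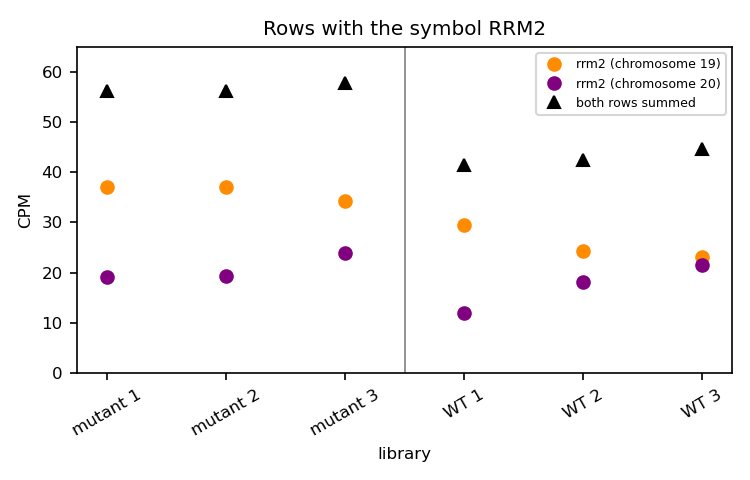
CPM of the rows with the symbol RRM2 on chromosomes 19 and 20, and of their sum, in each of the 6 libraries (WT marks wild-type siblings). The rows move against each other within groups, while the sum lies at 56.2 to 57.9 CPM in mutants and 41.5 to 44.6 CPM in siblings.

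Genes that restore methylation behind the fork and watch over replication also rose. UHRF1 recognises hemimethylated DNA and brings in the methyltransferase DNMT1. The uhrf1 gene, at log2 0.93 ± 0.03 SE, had the smallest adjusted p of the members, 9.22e-11. The dnmt1 gene measured 112, 111 and 111 CPM in mutants against 85.3, 81.5 and 83 CPM in siblings, a smaller change (log2 0.42 ± 0.03 SE, adjusted p = 8.56e-08). Per kb, uhrf1 was 0.948, 0.951 and 0.932 times dnmt1 in mutants and 0.64, 0.667 and 0.68 times in siblings. The gene hells encodes a chromatin remodeller needed for DNA methylation and changed by 0.79 ± 0.04. The checkpoint kinase gene chek1, which slows the cycle when forks stall, measured 8.46, 7.44 and 7.6 CPM in mutants against 3.58, 3.59 and 3.39 CPM in siblings. Its groups were more than 2-fold apart (log2 1.15 ± 0.07 SE, adjusted p = 3.52e-08).

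Libraries of a group differed little. The median coefficient of variation of a member within a group was 3.11%, and the largest was 38.1%, in the chromosome 2 row of mcm6. Members nevertheless shifted together: 42 of 52 lay above their group mean in mutant replicate 1 and 36 of 52 in sibling replicate 1, where 50.5% and 48.6% of all genes tested did. In mutant replicate 3 and sibling replicate 3 the counts were 17 and 15 of 52. These shifts were small, with median deviations between -0.027 and 0.021 on the log2 scale.

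**Figure D4:**
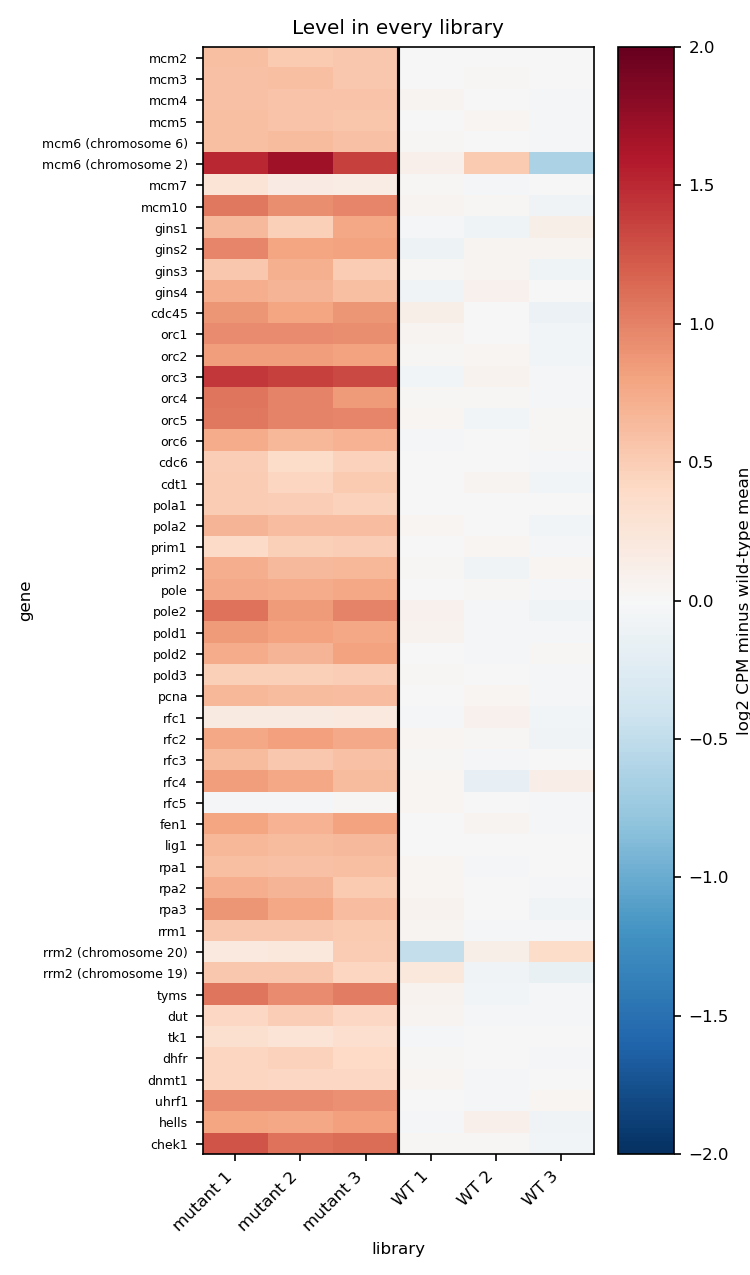
Log2 CPM of each of the 52 rows in each library, minus the mean of the wild-type siblings (WT), as a colour from blue (lower) to red (higher). The 3 mutant columns are red in all rows but rfc5, and rrm2 on chromosome 20 is mixed among siblings.

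Members of low level tended to change more. Across the 52 rows, the log2 change and the log2 CPM of siblings had a Pearson r of -0.56 and a Spearman rho of -0.55. This is a description across genes of the same libraries, which are not independent replicates. Sibling levels enter both quantities, and the correlation over all genes tested was not computed, so the trend may not be particular to the members. The members lie on 23 chromosomes. On chromosome 7, which carries pdcd7, orc6, cdt1 and tyms start 28.1, 41.8 and 57.9 Mb from it, and their changes were log2 0.70 ± 0.06, 0.49 ± 0.06 and 1.02 ± 0.05 SE. On chromosome 11, orc2, tk1 and rfc4 start within 0.489 Mb of each other and changed by 0.82 ± 0.06, 0.31 ± 0.04 and 0.74 ± 0.07.

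Further genes around the fork were mostly called higher. Of 27 replication partners measured, which regulate firing or hold the fork together, 23 were called higher and 2 lower, with a median log2 change of 0.58. With upper quartile scaling, library size only, DESeq2, or without mutant replicate 2 or 3 or sibling replicate 1 or 3, 1 was called lower. The MCM-binding protein gene mcmbp rose by 1.49 ± 0.04 SE from 18.5 ± 0.358 CPM in siblings (SD, n = 3), and the PCNA-unloading gene atad5a by 0.67 ± 0.03. The rows with the symbol TOP1, a topoisomerase, went opposite ways. The row of lower level (ENSDARG00000086775) fell by 0.91 ± 0.07 on the log2 scale, to 3.22 ± 0.236 CPM from 6.05 ± 0.098 CPM in siblings (SD, n = 3). The other (ENSDARG00000070545) rose by 0.30 ± 0.04, to 97.6 ± 1.75 CPM from 79.4 ± 3.74 CPM. The gene pold4, for a small subunit of polymerase delta, was the other gene called lower, at -0.13 ± 0.05. It lost its call under the alternatives with 1 gene called lower, while that TOP1 row kept its call. Of 35 genes of replication stress and fork repair, 33 were called higher and 0 lower (median 0.62). The mismatch repair gene msh6 rose by 0.75 ± 0.04.

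Most genes of chromatin assembly and nucleotide synthesis were called higher as well. Of 11 genes of replication-coupled chromatin, 10 were called higher and 1 lower (median log2 change 0.70). The histone chaperone gene chaf1a rose by 1.04 ± 0.03 SE. For ssrp1, a subunit of the FACT chaperone, one row (ENSDARG00000037397) rose by 0.88 ± 0.03. The other (ENSDARG00000016994) stood at log2 -0.11 ± 0.05, just past the threshold (adjusted p = 0.0474), and lost its call under several alternatives, among them library size only (adjusted p = 0.45), DESeq2 (0.0789) and leaving out any mutant library or sibling replicate 3 (0.0702 to 0.224). Of 28 genes of purine and pyrimidine synthesis, 22 were called higher and 6 lower (median 0.40), with 4 lower under upper quartile scaling or without mutant replicate 3 or sibling replicate 1, and 3 with library size only. Here the rows of ctps1, for CTP synthesis, went opposite ways: one (ENSDARG00000030700) rose by 1.21 ± 0.03, to 52.8 ± 0.549 CPM from 22.8 ± 0.413 CPM in siblings (SD, n = 3), and the other (ENSDARG00000098386) fell by 0.39 ± 0.04 on the log2 scale, to 39.5 ± 0.523 CPM from 51.7 ± 2.07 CPM. So did the rows of impdh1, for guanine nucleotide synthesis, of which one (ENSDARG00000042336) fell by 0.79 ± 0.03 and the other (ENSDARG00000029524) rose by 0.25 ± 0.03. The related gene impdh2 rose by 0.91 ± 0.03.

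**Figure D5:**
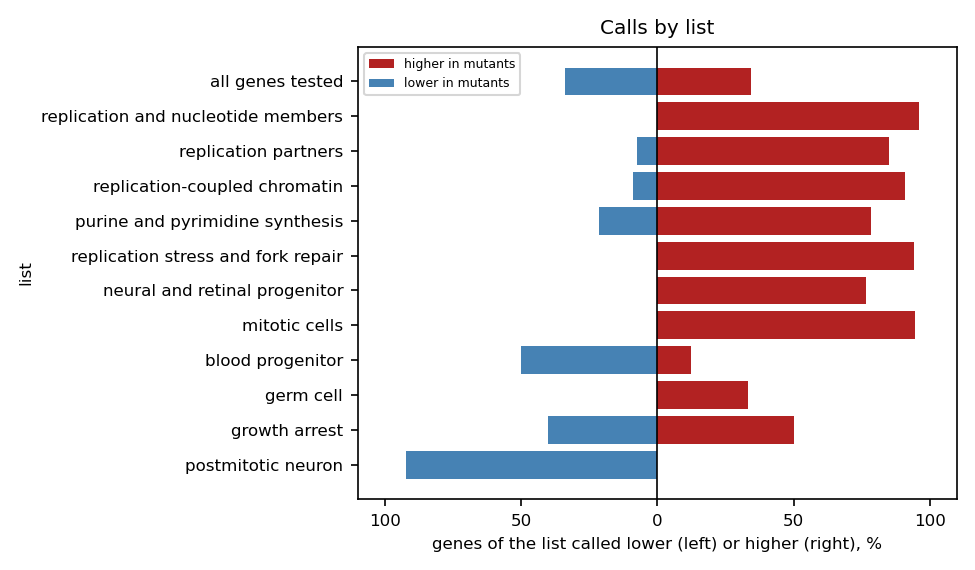
Percentage of the measured genes of each list called lower (blue, left) or higher (red, right) in mutants, with all genes tested in the top bar. Replication members reach 96.2% higher, against 34.5% of all genes tested, and genes of postmitotic neurons 92.3% lower.

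Lists of marker genes for cell states were counted in the same way. Of 19 mitotic genes, 18 were called higher and 0 lower, with a median log2 change of 0.56, and their summed level was 577 to 608 CPM in mutants and 410 to 427 CPM in siblings. The gene top2a (log2 0.16 ± 0.03 SE) was counted both here and among the replication partners. The cyclin gene ccna2 rose by 0.76 ± 0.03 SE and the mitotic kinase gene plk1 by 0.75 ± 0.04. Of 17 neural and retinal progenitor genes, 13 were called higher and 0 lower (median 0.31), and the sum was 793 to 802 CPM against 608 to 632. The change of ccnd1 was log2 0.79 ± 0.03 SE, the largest of the list. This gene also had the highest level of the list, at a mean of 186 CPM in mutants and 108 CPM in siblings. The sum therefore leans on ccnd1 and does not describe the list as a whole, in which 4 genes were not called. Of the rows with the symbol NOTCH1, one (ENSDARG00000103554) rose by 0.59 ± 0.04. The other (ENSDARG00000052094) rose by only 0.11 ± 0.03, to 66 ± 2.51 CPM from 61 ± 1.29 CPM in siblings (SD, n = 3). In the list of postmitotic neurons, 0 of 13 genes were called higher and 12 lower (median -0.47), with sums of 2122 to 2225 CPM against 2857 to 2935. In it camk2a, for a synaptic kinase, fell by 0.98 ± 0.04 on the log2 scale and gad2, for GABA synthesis, by 0.73 ± 0.04.

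Fewer genes were measured in the remaining lists. Called higher and lower were 12.5% and 50% of blood progenitor genes, 33.3% and 0% of germ cell genes and 50% and 40% of growth arrest genes. Over all genes tested the shares were 34.5% and 34.1%, so the share of germ cell genes called higher was near that of all genes. Of 8 blood progenitor genes, 1 was called higher and 4 lower (median log2 change -0.27), with sums of 64.1 to 65.5 CPM in mutants and 68.6 to 70.6 CPM in siblings. Of 6 germ cell genes, 2 were called higher and 0 lower (median 0.31; 4 higher with library size only), with sums of 10.6 to 11.7 CPM against 8.79 to 9.2. The genes ddx4 and piwil1 of that list rose by log2 0.32 ± 0.08 SE and 0.28 ± 0.09. The growth arrest list was split, with 5 of 10 called higher and 4 lower (median 0.17), and sums of 586 to 609 CPM against 680 to 706. In it, cdkn1a, the p53-induced inhibitor of cyclin-dependent kinases, rose by 1.08 ± 0.04, and the antiproliferative gene btg1 fell by 0.53 ± 0.03 on the log2 scale. The sum is dominated by btg1, at 286 ± 6.65 CPM in mutants and 414 ± 8.44 CPM in siblings (SD, n = 3), and does not describe the list as a whole. The part of these cell states in the change of the replication genes was not tested.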

How the data were processed

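Polyadenylated RNA of 6 libraries of whole larvae was sequenced as read pairs, per the labels' protocols. The authors deposited raw counts per gene, 1 table per library. Per the file headers, featureCounts 1.6.3 counted read pairs over exons (GRCz11, Ensembl release 115, strand setting 2) without counting multi-mapping reads. The submitters' processing notes name Trimmomatic 0.38, STAR 2.7.11 and Subread 1.6.3. Exon lengths come from the deposited tables.

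Symbols came from a table matching 29201 IDs (89.8%). Counts were fitted over all genes with edgeR 4.0.16 (R 4.3.3): filterByExpr, TMM, quasi-likelihood F-test, two-sided, genotype as the only term, Benjamini-Hochberg adjustment, threshold 0.05. The fit was also run on simulated data with far fewer changed genes than were called here, so that run does not measure false calls in this setting. Log2 changes are mutant minus wild type, and errors are SEs unless marked SD. Each SE was derived from the test, as the absolute log2 change divided by the square root of the F statistic. The biological coefficient of variation was 4.22%. A count of 0 allows up to 3 counts, 0.0334 to 0.0410 CPM, for counting error only.

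Members and lists were chosen with earlier results of these data known. The entries and1 and dld were dropped because their symbols stand on other genes than the ones meant. List entries without an exact symbol were matched after dropping the paralogue letter, where that gave a symbol in use. Entries still unmatched were not measured, among them ticrr, donson, clspn, brca1, her6 and dla, so the lists are incomplete. Values per library are given for the largest and smallest change in each complex, members not called, pcna and pdcd7. The genes named from the further lists are among those with the smallest adjusted p in each direction, second rows of a symbol and pold4 aside, and a gene chosen so is not reported here. Alternatives were other scalings, filters and thresholds, DESeq2 1.42.0, limma-voom (limma 3.58.1), a replicate block and each library left out. Figures used matplotlib 3.10.9.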

Additional observations from a re-analysis of the deposited data

How the results depend on the processing

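The count of members called higher was 50 of 52 under DESeq2 size factors, upper quartile scaling, library size only, no filter, DESeq2, limma-voom and a threshold of 0.01, and 49 of 51 under the filter of 1 CPM in 3 libraries, which removed the chromosome 2 row of mcm6. Leaving out each library gave 50 to 51. No member was called lower under these alternatives. Scaling moved the median of all genes to at most log2 0.08 (library size only), where 59.5% of calls were higher against 50.3%, while the members' median stayed 0.63 above it. Scaling shifts the log2 changes of all genes by nearly the same amount, so this gap could hardly have moved. The test against a 1.2-fold change called 47 members, leaving out mcm7, rfc1 and tk1, and 4490 genes higher and 4456 lower overall. The test against 1.5-fold, added after seeing the data, called 21 members higher, and 1401 genes higher (5.78%) and 1786 lower overall. It called 1 MCM row, the low-count chromosome 2 row of mcm6, and none of the other MCM2 to MCM7 rows. It also called mcm10, 2 GINS or CDC45 genes, 5 of ORC and licensing, 4 polymerase genes and 2 of the clamp group. The rest were 1 of flap and nick processing, 1 of single-strand binding, 1 of nucleotide supply, and 3 of methylation, chromatin and checkpoint. Of the further lists, the 1.2-fold and 1.5-fold tests called higher 21 and 9 replication partners, 10 and 7 genes of chromatin, 16 and 6 of purine and pyrimidine synthesis, 26 and 13 of fork repair, 15 and 4 mitotic, 8 and 2 neural progenitor, 3 and 2 growth arrest genes, and 0 germ cell or blood progenitor genes in either. They called lower 1 and 1 replication partners, the TOP1 row of lower level in both, and 9 and 2 neuron genes. The other lower calls were 4 and 0 of blood progenitors, 1 and 0 of growth arrest and 3 and 1 of purine and pyrimidine synthesis. The cause was the construction of these tests, which ask for a larger change.

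Deviations of libraries with the same replicate number correlated at 0.03, -0.06 and -0.01, and libraries did not all correlate best with their own number. These values show no pairing by number but cannot exclude it. Among the 52 member rows, 42 and 36 lay above the group mean in replicate 1 of mutants and siblings, and 17 and 15 in replicate 3. Whether replicate numbers mark a shared origin of the libraries was not tested. With the replicate block 51 members were called higher, the added call being rrm2 on chromosome 20 (log2 0.28, adjusted p = 0.0194). Depth limits the chromosome 2 row of mcm6, with 9 to 47 counts per library.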
